A study of Homo sapiens with 12 samples.

Results

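The 52 genes described here are the protein-coding genes of human BJ-5ta fibroblasts whose RNA fell to 1/3 or less in low serum both in wild-type cells and in cells without LEO1. They were chosen on CPM (counts-per-million), the count of a gene divided by the total gene count of its library. A gene was taken when its mean CPM in 0.1% serum was at most 1/3 of its mean CPM in 10% serum in each genotype and its mean CPM in 10% serum was 3 or more in both. The 52 genes came from 10166 protein-coding genes that met the CPM minimum, out of 19903 protein-coding genes and 60671 genes of any type in the count table. The fall was thus the criterion and not a finding, and the values of 0.1% against 10% serum are given as a description.

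BJ-5ta cells are skin fibroblasts immortalised with hTERT, and the series asked how LEO1 bears on gene expression when fibroblasts enter quiescence. Wild-type cells and ΔLEO1 cells, a CRISPR/Cas9 knockout line that is 1 clone (clone 13), were grown in RPMI medium with 10% serum or kept for 10 days in 0.1% serum. The 4 groups, called WT_10, WT_01, Leo1_10 and Leo1_01 in the labels, held 3 libraries each of poly(A) RNA with ERCC spike-in transcripts added. Neither the labels nor the methods say whether the libraries came from separate cultures, so the p-values measure only the spread between these libraries.

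LEO1 is a subunit of the PAF1 complex, which travels with RNA polymerase II during elongation and is needed for several histone marks of transcribed genes. Serum supplies growth factors, lysophospholipids and hormones to cultured fibroblasts. Its removal is known to stop proliferation and to lower genes that depend on growth factor signalling and on actin dynamics, the latter through SRF with its myocardin-family coactivators and through YAP/TAZ with TEAD factors.

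Gene totals ran from 26240632 to 45315560 counts per library and ERCC transcripts made up 0.625% to 3.24% of the counts. LEO1 itself averaged 23.5 and 26.9 CPM in WT_10 and WT_01 and 1.13 and 1.16 CPM in Leo1_10 and Leo1_01, so the libraries carried the genotype of their labels. All 17 fibroblast markers exceeded 10 CPM in every library, whereas 26 of 32 markers of other cell types stayed under 1 CPM in every library and 6 of these were at 0. The summed CPM of the 32 markers was 6.35 to 8.15 in the wild-type libraries and 14.8 to 23.4 in the ΔLEO1 libraries, and its part in the differences between genotypes was not tested. The library with the highest number in each group (3, 6, 9 and 12) stood apart from the others, as described for the 52 genes below.

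The 52 genes lay on 20 chromosomes and were not clustered, apart from PSG1, PSG5 and PSG9 within 1 Mb on chromosome 19, where PSG5 (chr19:43166256-43186536) and PSG9 (chr19:43211791-43269530) were 25255 bases apart. All positions are on GRCh38. RefSeq promoter windows, 250 bases before to 50 bases after the start of transcription (GRCh38.p14, the first start listed for each gene), were found by symbol for 40 of the 52 genes. PSG1, MYOCD, PSG9, PTPRQ, NLRP10, PRAG1, WFDC1, MMP3, OLR1, HMCN1, SOCS2 and ADAMTS5 had none, so these 12 were not searched. The window of ANO3 lies upstream of its GENCODE 29 span (chr11:26309599-26663288), and that of TPD52L1 lies within its span (chr6:125119049-125264407). Whether the cells use the listed starts was not tested. The 40 windows were poorer in GC than those of other genes. Their median GC content was 51.8%, against 65.7% for the 8429 windows of protein-coding genes at the CPM minimum, and 19 of 40 windows (47.5%) held less than 50% GC, against 7.04%. The median observed-to-expected ratio of CpG was 0.402, against 0.857.

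**Figure D1:**
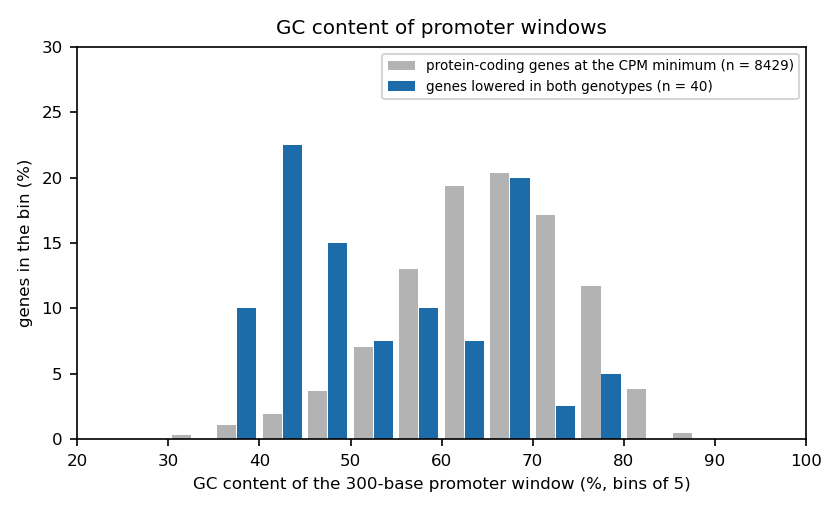
Share of genes (%) in bins of 5% GC content of the 300-base promoter window, for the 40 genes with a window (blue) and for 8429 protein-coding genes at the CPM minimum (grey). The blue bars form a low-GC group between 35% and 50% where few grey windows lie, and a GC-rich group that overlaps the grey peak.

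Short motifs were searched on both strands of these windows, as letters only. The TEAD core GGAATG was present in 13 of 40 windows (32.5%) against 10.6% of the windows at the CPM minimum and 11.7% of all 15843 protein-coding windows. Among windows under 50% GC it was in 7 of 19 (36.8%) against 19.4%, and among the others in 6 of 21 (28.6%) against 9.93%. The letters TATAAA were in 8 windows (20%) against 4.82%. Among windows under 50% GC their share was 21.1% against 22.1%, and among the others 19% against 3.51%. In 6 of them (CEMIP, IL7R, KRT34, ACTC1, DEPP1 and RNF144B, 15% against 1.36%) they began 25 to 35 bases before the start on the gene's strand, a range set after the matches were seen. No window held an E2F site (TTTCGCGC or TTTGGCGC), a CRE (TGACGTCA or TGACGCA) or the SMAD palindrome GTCTAGAC, which occurred in 0.119% to 3.81% of the windows at the CPM minimum. The AP-1 site TGANTCA was in 4 windows (10% against 3.99%), the NF-kB site in 2 (5% against 6.48%), TTTGAA in 9 (22.5% against 9.36%), CCAAT in 13 (32.5% against 37.2%), CACGTG in 4 (10% against 10.5%), GGCGCC in 4 (10% against 32.2%) and the GC box GGGCGG in 13 (32.5% against 72.4%). These matches are a description of letters and were not tested as sites.

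The SRF CArG box was in 1 of the 40 windows, that of the cardiac actin gene ACTC1, against 1.06% of windows at the CPM minimum. MYOCD had no window. The 250 bases before the ACTC1 start (chr15:34795550-34795799, minus strand) are shown with the CArG box, which began 109 bases before the start, and the TATA box in capitals because ACTC1 had the largest difference between genotypes in 10% serum.
ACTC1: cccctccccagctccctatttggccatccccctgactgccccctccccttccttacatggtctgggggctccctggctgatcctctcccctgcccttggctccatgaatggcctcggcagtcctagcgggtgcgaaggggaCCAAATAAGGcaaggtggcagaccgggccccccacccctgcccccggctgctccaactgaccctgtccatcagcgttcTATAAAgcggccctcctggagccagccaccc

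Upstream stretches with GGAATG or its reverse complement in capitals are shown for 6 genes, because this motif was more frequent than in other windows at both GC levels. They come from chr3:149377650-149377783 (TM4SF1, minus strand, 2 matches), chr10:44978967-44978996 (DEPP1, minus), chr2:191847089-191847116 (CAVIN2, minus), chr6:125154208-125154237 (TPD52L1, plus), chr9:99821800-99821829 (NR4A3, plus) and chr11:26188686-26188715 (ANO3, plus).
TM4SF1: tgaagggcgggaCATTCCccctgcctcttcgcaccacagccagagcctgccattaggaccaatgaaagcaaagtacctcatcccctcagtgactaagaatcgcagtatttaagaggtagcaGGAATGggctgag
DEPP1: ctgcagcgtaaaCATTCCccagcctcctac
CAVIN2: ttaagagcagctGGAATGcagttcccct
TPD52L1: aaatgcgcccgtGGAATGctctaccctctt
NR4A3: attgacgtctcgCATTCCaggcactctatg
ANO3: ttccaattaaaaCATTCCtctgatgagctg

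The TATA stretches of 4 genes are shown with TATAAA in capitals, since their distance from the start was alike. They come from chr15:80779328-80779357 (CEMIP, plus strand), chr17:41382320-41382349 (KRT34, minus), chr10:44978823-44978852 (DEPP1, minus) and chr6:18387307-18387336 (RNF144B, plus), and each began 30 or 31 bases before the start.
CEMIP: agtaaaagtggcTATAAAagcggcctctcg
KRT34: cacaattaatggTATAAAaggactgcagag
DEPP1: ctgctgggaaggTATAAAagcagcttgcct
RNF144B: ctgagcttcctgTATAAAtaaacgcgctgc

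Together the 52 genes took 3283 to 4201 CPM in WT_10 and 451 to 648 CPM in WT_01. In ΔLEO1 cells they took 4173 to 5160 CPM in 10% serum and 819 to 1206 CPM in 0.1% serum. The median gene kept 16.1% of its 10% serum level in wild-type cells and 21.4% in ΔLEO1 cells, while the other 10114 protein-coding genes at the CPM minimum had medians of 104% and 103%. In wild-type cells 14 of the genes were at 1/10 or less of their 10% serum level, in ΔLEO1 cells 6. These 6, PSG1, DIO2, MYOCD, PSG9, GJA5 and SERPINB7, were at that level in both genotypes. In 42 of the 52 genes (on CPM, all libraries) less was left in wild-type than in ΔLEO1 cells. The rule bounds these shares, the same count was not made for other genes, and it was not tested. It also depended on the libraries. Without the highest-numbered library of each group the order reversed in some genes, more often to less left in ΔLEO1 cells. KCNH1 then kept 25.4% in wild-type and 13.6% in ΔLEO1 cells, against 16.4% and 29.8% with all libraries. ACTC1 went the other way, with 30.3% and 35.3% against 17.1% and 12.8%.

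**Figure D2:**
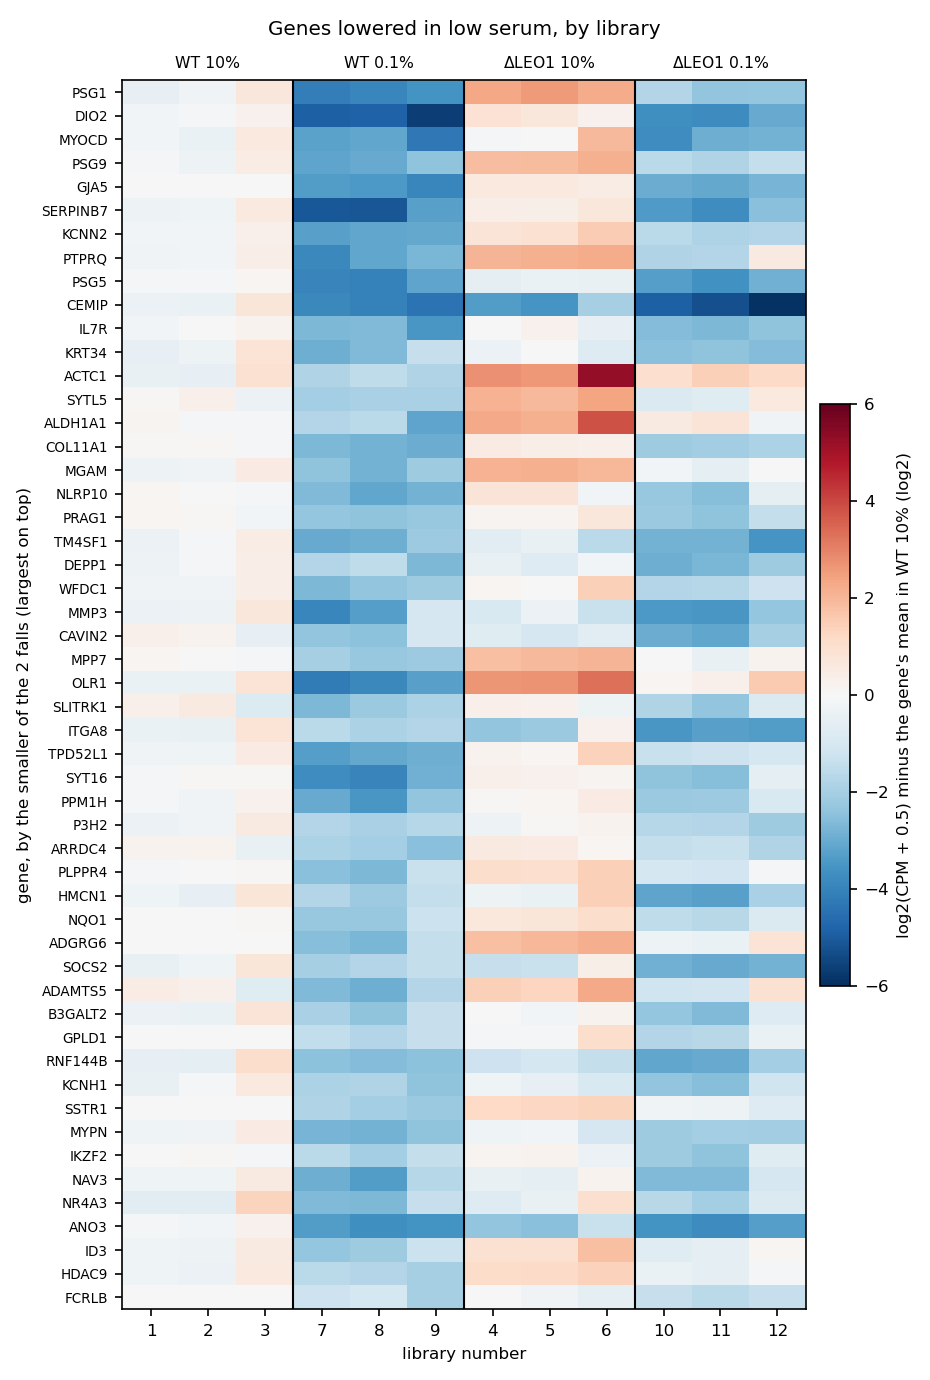
Level of each of the 52 genes (rows, largest smaller fall on top) in the 12 libraries (columns, by library number), as log2(CPM + 0.5) minus the gene's mean in WT_10, on a colour scale from -6 to 6. The 0.1% serum columns are blue for almost every gene in wild-type cells, and the ΔLEO1 columns in 10% serum are among the reddest for ACTC1, ALDH1A1 and OLR1 and bluest for CEMIP.

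In each of the 52 genes every 0.1% serum library lay under every 10% serum library of the same genotype. This held for 18.6% of the 13236 tested genes in wild-type cells and 15.8% in ΔLEO1 cells on the CPM scale, and for 53.4% and 50.9% on counts scaled to the ERCC transcripts. With ERCC scaling, which keeps the change in total RNA relative to the added transcripts, the median log2 change of the 52 genes in low serum was -3.74 in wild-type and -3.16 in ΔLEO1 cells, and that of all tested genes was -0.97 and -1.05. With TMM scaling on the genes, which sets the median gene near 0, the medians of the 52 were -2.72 and -2.30. All 52 passed the edgeR test at an adjusted p under 0.05 as lower in low serum in both genotypes, beside 36.1% of all tested genes in wild-type and 47.2% in ΔLEO1 cells, a count that the choice of the genes fixes. In bulk RNA, fewer cells that express a gene and less RNA per cell cannot be told apart.

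**Figure D3:**
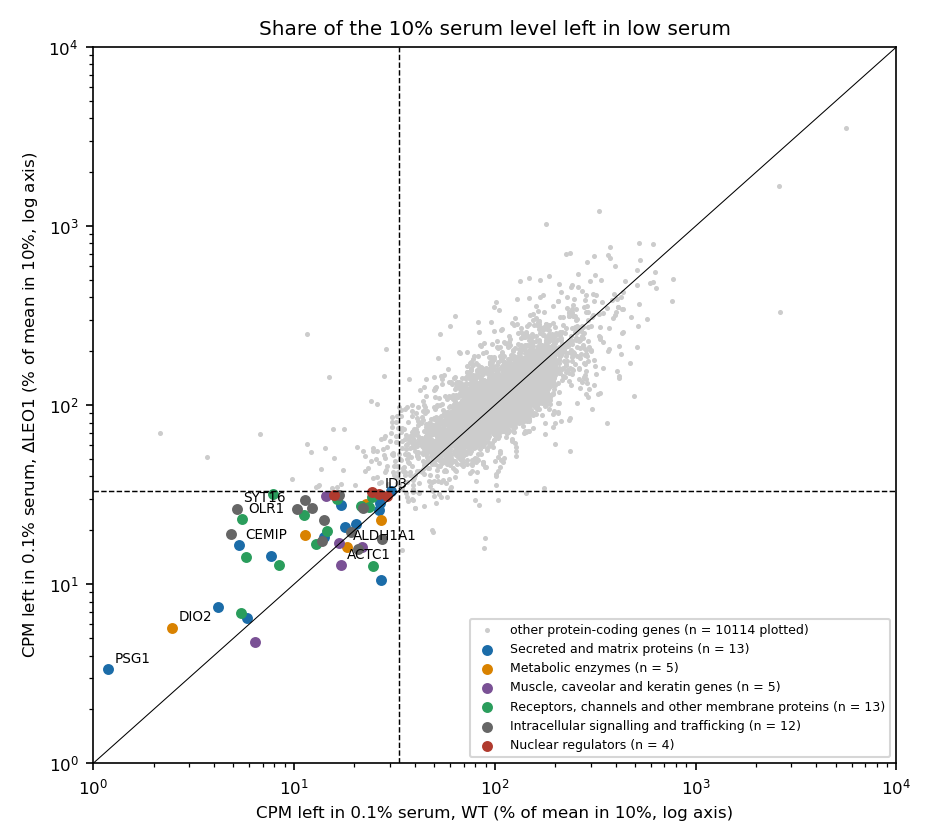
Mean CPM in 0.1% serum as a percentage of mean CPM in 10% serum, in wild-type (x axis) against ΔLEO1 cells (y axis), both log axes, for the 52 genes (coloured by the role of the protein) and 10114 other protein-coding genes (grey). Dashed lines mark the 1/3 threshold of the rule and the solid line marks equal shares. Most coloured points lie above the solid line, and PSG1 and DIO2 lie farthest to the lower left.

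The genes nearest the threshold inside it were ID3, with 26.4% left in wild-type and 32.0% in ΔLEO1 cells, HDAC9, with 24.5% and 32.7%, and FCRLB, with 30.5% and 33.3%. Just outside were ARNT2, with 34.3% and 15.5%, the BMP antagonist GREM1, with 15.5% and 34.4%, and PDE3A, with 34.4% and 34.0%. At the CPM minimum CAVIN2 (3.02 CPM in the lower of its 10% serum groups), FCRLB (3.18) and SYTL5 (3.28) were just inside, and LDB3 (2.91), LYPD6B (2.58) and TENT5B (2.42) just outside. A further 74 genes met the fall in wild-type cells alone and 26 in ΔLEO1 cells alone. Among genes that do not code for protein, 5 met the numbers of the rule, SOCS2-AS1, DIRC3, LINC03069, KIAA2012-AS1 and ENSG00000254337.

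Within every group the library with the highest number differed from the other pair more in these genes than in others. Between the lower-numbered pair of libraries the median absolute log2 difference over the 52 genes was 0.06 in WT_10, 0.21 in WT_01, 0.11 in Leo1_10 and 0.14 in Leo1_01. Against these, libraries 3, 9, 6 and 12 differed by a median of 0.65, 0.55, 0.52 and 0.72, where other protein-coding genes differed by 0.15, 0.20, 0.14 and 0.24. The highest-numbered library was the highest of its 3 in 37, 34, 33 and 39 of the 52 genes (71.2%, 65.4%, 63.5% and 75%). Among the other protein-coding genes it was the highest in 42.95%, 40.1%, 37.4% and 52.4%. Its part in the spread was not tested, and the calls between genotypes are given with and without these libraries.

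Secreted and matrix proteins, a group that here also took in P3H2, SERPINB7 and FCRLB, made up 13 of the 52 genes. The group had medians of 17.2% left in wild-type and 18.5% in ΔLEO1 cells. The pregnancy-specific glycoproteins, secreted proteins of the CEA family made chiefly by the placenta, held 3 places. PSG1 (chr19:42866464-42879822) had the largest fall of all 52, from 5.81, 7.12 and 13.6 CPM in WT_10 to 0, 0.0762 and 0.239 CPM in WT_01. In ΔLEO1 cells PSG1 went from 43.5, 50.3 and 41.1 CPM to 2.1, 1.2 and 1.25 CPM. The groups did not overlap, and the lowest Leo1_10 library was above the highest WT_10 library. PSG9 averaged 5.55 ± 1.69 CPM (SD, n = 3) in WT_10, 0.325 ± 0.239 in WT_01, 22.4 ± 2.48 in Leo1_10 and 1.45 ± 0.251 in Leo1_01.

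PSG5 was far more abundant than the other PSG genes and showed no such difference between genotypes. It was read at 507, 503 and 565 CPM in WT_10, 32.9, 30.6 and 57.2 CPM in WT_01, 364, 393 and 383 CPM in Leo1_10 and 52.1, 41.7 and 69.5 CPM in Leo1_01. Wild-type cells were thus above ΔLEO1 cells in 10% serum on the CPM scale, with a log2 fold change of -0.12 ± 0.44 (SE) with ERCC scaling (adjusted p = 0.89). PSG2, PSG4 and PSG6 were under the CPM minimum in wild-type cells, and 4.04% to 8.14% of their 10% serum means was left in low serum in the 2 genotypes. PSG transcripts are close to identical in part: 29.8% of the 58-base stretches of PSG9 transcripts, 18.6% of those of PSG1 and 13.6% of those of PSG5 also occur in transcripts of other genes, so the split of reads among PSG genes is uncertain.

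COL11A1, a fibrillar collagen chain, was the most abundant of the 52 genes, with 602, 597 and 533 CPM in WT_10 and 88.4, 81.5 and 73.5 CPM in WT_01. In ΔLEO1 cells it stood at 819, 762 and 711 CPM in 10% serum and 133, 136 and 156 CPM in 0.1% serum. Each ΔLEO1 library was above each wild-type library of the same serum, but the difference was not called with ERCC scaling (adjusted p = 0.41 in 10% and 0.14 in 0.1% serum), while it was with TMM scaling (log2 0.40 and 0.81, adjusted p = 0.0027 and 1.4e-10). COL11A1 and PSG5 together made up 26.1% to 33.7% of the CPM of the 52 genes in WT_10. COL11A1 was the only member of 22 collagen genes at the CPM minimum. COL5A1, which encodes a chain of the related collagen V, kept 115% and 79.4% of its level. The collagen V chain gene COL5A2 kept 56.3% and 43.4%, and COL1A1 kept 58.2% and 58.4%.

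CEMIP (chr15:80779343-80951776), a hyaluronan-binding protein needed for hyaluronan breakdown in fibroblasts, differed most strongly in the other direction. It was read at 296, 293 and 632 CPM in WT_10 and at 36.8, 32.5 and 93.7 CPM in Leo1_10. In low serum it fell to 25.8, 22.2 and 17.1 CPM in WT_01 and to 12.1, 9.35 and 5.67 CPM in Leo1_01. The lowest WT_10 library was above the highest Leo1_10 library. Its relative CEMIP2 kept 163% and 194% of its CPM.

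Among proteins that act on the matrix, the metalloproteinase MMP3 (stromelysin) kept 20.5% in wild-type and 21.8% in ΔLEO1 cells, and the aggrecanase ADAMTS5 kept 17.2% and 27.6%. MMP3 stood at 9.42, 14.8 and 73.8 CPM in WT_01, where library 9 alone was high. The related MMP1 kept 63.8% and 114%, and ADAMTS1 kept 78.0% and 88.2%. SERPINB7, a serine protease inhibitor, went from 35, 35.6 and 65.1 CPM to 0.772, 0.762 and 4.15 CPM in wild-type cells and from 56.7, 55.6 and 70.5 CPM to 3.65, 2.86 and 7.08 CPM in ΔLEO1 cells. MMP3, ADAMTS5 and SERPINB7 were the members among 38 matrix proteases, inhibitors and crosslinkers at the CPM minimum. The matrix protein HMCN1 (hemicentin) kept 27.0% and 10.5%, the secreted WFDC1 kept 18% and 20.9%, and the collagen prolyl 3-hydroxylase P3H2 kept 26.6% and 25.9%. GPLD1, a phospholipase that cleaves GPI anchors, kept 26.8% and 28.4%.

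Metabolic enzymes numbered 5. DIO2 (chr14:80197527-80387757), the deiodinase that converts thyroxine into the active thyroid hormone, had the second lowest share left in wild-type cells, 2.47%, and 5.73% in ΔLEO1 cells. It was read at 97.6, 105 and 133 CPM in WT_10 and at 3.24, 3.35 and 1.70 CPM in WT_01. In ΔLEO1 cells it stood at 200, 175 and 134 CPM and at 8.25, 7.78 and 13.2 CPM. The deiodinase gene DIO3 was listed at 0 in every library.

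ALDH1A1 (chr9:72900662-73080442), which makes retinoic acid from retinal, was read at 7.13, 5.97 and 6.04 CPM in WT_10 and at 1.52, 1.71 and 0.269 CPM in WT_01. In Leo1_10 it stood at 32.5, 29.2 and 97.7 CPM, with library 6 far above the others, and in Leo1_01 at 9.43, 11.1 and 5.38 CPM. Its paralogs did not fall likewise: ALDH1A2 stood at a mean of 1.03 CPM in WT_10 and 3.37 CPM in WT_01, and ALDH1A3 kept 147% and 102%. DIO2 and ALDH1A1 were the members among 14 thyroid hormone and retinoid genes at the CPM minimum.

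NQO1, a quinone reductase, went from 200, 198 and 209 CPM to 41.1, 41.6 and 82.6 CPM in wild-type cells and from 314, 339 and 414 CPM to 69.4, 63.4 and 110 CPM in ΔLEO1 cells. Other genes of the same antioxidant response kept more in wild-type cells, with 39.1% of GCLM, 41.3% of TXNRD1 and 35.9% of HMOX1. The share of HMOX1 is uncertain, since its WT_10 libraries ranged from 22.3 to 75.4 CPM, against a mean of 14.4 CPM in WT_01. In ΔLEO1 cells TXNRD1 kept 32.6%, and GCLM and HMOX1 kept 65.7% and 94.8%. The brush-border glucosidase MGAM kept 11.3% and 18.9%. B3GALT2, a galactosyltransferase, kept 22.7% and 28%, and its gene lies on the strand opposite CDC73, which encodes another PAF1 complex subunit, so that reads could be split only by strand.

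Genes of muscle, caveolae and keratin filaments numbered 5. MYOCD (chr17:12665890-12768949), myocardin, the muscle coactivator of SRF, was read at 16.6, 14.1 and 28.4 CPM in WT_10 and at 1.60, 1.71 and 0.478 CPM in WT_01. In ΔLEO1 cells it stood at 17.6, 19.2 and 73.0 CPM and at 0.978, 2 and 2.24 CPM. ACTC1 (chr15:34788095-34795726), a sarcomeric actin, was low in WT_10, at 2.19, 2.09 and 6.43 CPM, and fell to 0.535, 0.762 and 0.537 CPM in WT_01. In ΔLEO1 cells ACTC1 stood at 24.2, 21.5 and 138 CPM in 10% serum and at 6.76, 9.41 and 7.48 CPM in 0.1% serum. It was the only one of the 52 genes in which every Leo1_01 library was above every WT_10 library.

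Myopalladin (MYPN), a sarcomere protein, kept 14.5% and 31.1%, the caveolar coat protein gene CAVIN2 kept 21.9% and 16.1%, and the hair keratin gene KRT34 kept 16.8% and 17.0%. Of the 58-base stretches of KRT34 transcripts, 8.44% also occur in transcripts of KRT33B, KRT33A or KRT31. MYOCD and ACTC1 were the members among 49 actin, contractile and SRF-linked genes at the CPM minimum. Of the 51 genes of that list that were tested, 35 were called lower in low serum in wild-type and 21 in ΔLEO1 cells with TMM scaling, where 16.6% and 12.9% of all tested genes were. The smooth muscle actin ACTA2, which is not a member, kept 24.7% in wild-type and 39.1% in ΔLEO1 cells.

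Receptors, channels and other membrane proteins made up 13 genes, with medians of 12.9% left in wild-type and 23.2% in ΔLEO1 cells. OLR1 (chr12:10158301-10172138), the scavenger receptor LOX-1 for oxidised lipoproteins, was read at 20.5, 20.9 and 48.3 CPM in WT_10 and at 1.04, 1.45 and 2.45 CPM in WT_01. In ΔLEO1 cells it stood at 174, 182 and 273 CPM and at 30.3, 33.8 and 81.5 CPM. The mean in Leo1_01, 48.6 CPM, was above that in WT_10, 29.9 CPM, although the libraries overlapped. OLR1 lies opposite TMEM52B on the other strand. The same order of means held for ACTC1 (7.88 against 3.57 CPM), ALDH1A1 (8.64 against 6.38 CPM) and ADGRG6 (32.3 against 29.2 CPM). In ALDH1A1 and ADGRG6 the libraries overlapped as well. In ADGRG6 the order rested on library 12, at 51.3 CPM. Libraries 10 and 11, at 23.7 and 21.9 CPM, were under every WT_10 library (28.4 to 29.8 CPM).

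The interleukin-7 receptor gene IL7R kept 12.9% and 16.7%, and the calcium-activated potassium channel gene KCNN2 kept 8.43% and 12.8%. GJA5, a connexin of gap junctions, varied little within the 10% serum groups, with 15.2, 14.4 and 15.1 CPM in WT_10 and 1.01, 0.915 and 0.508 CPM in WT_01. In ΔLEO1 cells GJA5 stood at 22.6, 23.0 and 20.5 CPM and at 1.44, 1.35 and 1.76 CPM. GJA1, the main connexin of fibroblasts, kept 62.4% and 143%. ANO3, of the anoctamin family of channels and scramblases, went from 65.6, 63.3 and 85.6 CPM to 6.42, 5.11 and 5.4 CPM in wild-type cells. In ΔLEO1 cells it was already low in 10% serum, at 13.2, 12.2 and 27.6 CPM, and reached 5.35, 4.8 and 6.69 CPM in 0.1% serum. The 2 genotypes thus met at a like CPM in low serum.

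ITGA8 (chr10:15513949-15720125), the integrin alpha 8 chain, was read at 10.3, 9.93 and 24.9 CPM in WT_10 and at 4.10, 3.35 and 3.76 CPM in WT_01. In ΔLEO1 cells it stood at 2.22, 2.54 and 16.4 CPM and at 0.776, 0.984 and 0.907 CPM. Library 6 alone brought Leo1_10 into the range of WT_10. The somatostatin receptor gene SSTR1 kept 24.4% and 30.7%, the adhesion receptor gene ADGRG6 kept 21.7% and 27.3%, and the potassium channel gene KCNH1 kept 16.4% and 29.8%, although 14.7% of its 58-base stretches also occur in other transcripts. The tetraspan protein TM4SF1 kept 14.5% and 19.9%, the receptor phosphatase PTPRQ 5.77% and 14.2%, SLITRK1 11.2% and 24.5%, and PLPPR4, a lipid phosphatase-related protein, 23.7% and 26.9%. KCNN2, KCNH1 and ANO3 were members among 55 ion channel genes at the CPM minimum, and ADGRG6 and SSTR1 among 48 G protein-coupled receptor genes.

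Intracellular signalling and trafficking genes numbered 12. The arrestin-domain gene ARRDC4 was the most abundant of them, at 231, 234 and 148 CPM in WT_10 and 52.7, 47.8 and 35.1 CPM in WT_01, and it kept 26.7% in ΔLEO1 cells. TXNIP, an arrestin-domain relative that like ARRDC4 is induced by glucose, kept 87.6% and 71.3%. SOCS2, a feedback inhibitor of cytokine and growth hormone signalling, kept 27.5% and 17.8%, whereas SOCS1 kept 162% and 119% and SOCS3 123% and 72.1%. SOCS2 overlaps SOCS2-AS1 on the opposite strand, which also met the numbers of the rule.

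SYT16, of the synaptotagmin family, went from 10.5, 12.2 and 12.2 CPM to 0.416, 0.267 and 1.13 CPM in wild-type cells and from 14.5, 14.2 and 13.0 CPM to 1.75, 1.54 and 7.76 CPM in ΔLEO1 cells. NLRP10, of the NOD-like receptor family, went from 5.21, 4.93 and 4.39 CPM to 0.356, 0.114 and 0.239 CPM in wild-type cells and from 8.58, 8.47 and 4.32 CPM to 0.604, 0.400 and 3.09 CPM in ΔLEO1 cells. Library 12 was the high one of Leo1_01 in both genes. The pseudokinase PRAG1 kept 19.3% and 19.7%, the phosphatase PPM1H 12.4% and 26.5%, TPD52L1 10.3% and 26.2%, SYTL5, a synaptotagmin-like protein, 13.7% and 17.4%, and the scaffold protein MPP7 14.2% and 22.9%. DEPP1, a FOXO target, kept 20.9% and 15.7%, the ubiquitin ligase RNF144B 11.4% and 29.6%, and NAV3, a neuron navigator, 16.8% and 31.3%.

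Nuclear regulators were 4 genes, all near the threshold in ΔLEO1 cells, with 31.2% to 32.7% left. ID3, an inhibitor of bHLH factors and a BMP target, was read at 60.9, 58 and 107 CPM in WT_10, 14, 16.3 and 29.2 CPM in WT_01, 135, 136 and 256 CPM in Leo1_10 and 43.5, 47.8 and 77.4 CPM in Leo1_01. Its paralog ID1 depended on the library: it went from 52.6, 50.1 and 63.0 CPM to 14.6, 13.3 and 83.1 CPM in wild-type cells, so that libraries 7 and 8 had fallen and library 9 had not. In ΔLEO1 cells ID1 stood at 14.9 and 13.4 CPM in libraries 10 and 11 and at 96.7 CPM in library 12. The orphan nuclear receptor NR4A3, an immediate early gene, kept 15.7% and 31.4%, while NR4A1 kept 128% and 109% and NR4A2 96.8% and 155%. The class IIa histone deacetylase gene HDAC9 kept 24.5% and 32.7%, whereas HDAC4, HDAC5 and HDAC7 kept 77.7% to 143%. IKZF2, a zinc finger factor of the Ikaros family, kept 29.1% and 31.2%.

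**Figure D4:**
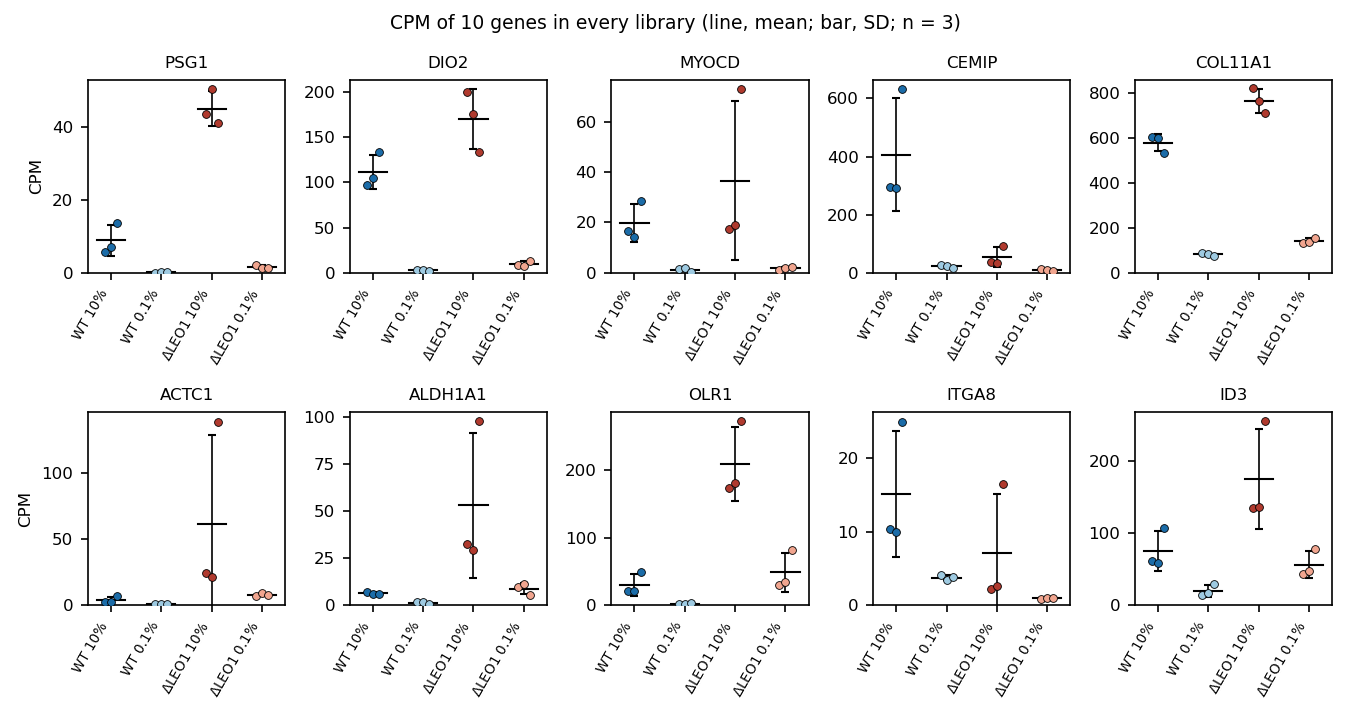
CPM of 10 of the 52 genes in each library (points), with the mean (line) and SD (bar) of 3 libraries per group, on axes that start at 0. ACTC1, ALDH1A1 and OLR1 were higher in ΔLEO1 than in wild-type cells in both sera. CEMIP was lower in both sera on CPM, although with ERCC scaling and all libraries its difference was called in 10% serum only. Library 6 stood above the other libraries of Leo1_10 for MYOCD, ACTC1, ALDH1A1, ITGA8 and ID3.

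Of the 52 genes, 14 were on any of 30 lists of pathway genes used here, 19 when 12 symbol families were added, and 33 were on none. The counts of members per list, here and above, stand beside 52 members in 10166 protein-coding genes at the CPM minimum. At that share lists of these sizes would hold few members or none, so the counts are a description and not a result about the lists. None of 156 cell cycle genes at the CPM minimum was a member, nor any of 40 ribosome biogenesis genes, 41 sterol and fatty acid synthesis genes or 200 solute carriers. Of the 160 cell cycle genes tested, 150 were called lower in low serum in wild-type and 149 in ΔLEO1 cells with ERCC scaling, beside 36.1% and 47.2% of all tested genes, and 26 were called lower in low serum in wild-type and 17 in ΔLEO1 cells with TMM scaling, beside 16.6% and 12.9% of all tested genes. KRT34 was the only member of 27 YAP/TAZ-TEAD target genes at the CPM minimum, NR4A3 of 43 immediate early genes, and ID3 of 19 BMP genes.

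The comparison of genotypes was not part of the rule, although the same 12 libraries gave the values that chose the genes. In 10% serum 16 of the 52 genes (30.8%) were called higher in ΔLEO1 than in wild-type cells and 2 lower, where 4.2% and 4.64% of all tested genes were called higher and lower (edgeR likelihood ratio test with ERCC scaling, Benjamini-Hochberg adjusted p under 0.05). The median log2 difference of the 52 was 0.72, and that of all tested genes 0.35. In edgeR, ACTC1 had the largest rise (log2 4.47 ± 0.54, adjusted p = 1.2e-14), followed by ALDH1A1 (3.28 ± 0.51, adjusted p = 5.8e-09), OLR1 (3.25 ± 0.49, adjusted p = 1.9e-09), PSG1 (2.81 ± 0.50, adjusted p = 7.4e-07) and PTPRQ (2.57 ± 0.50, adjusted p = 8e-06). The others called higher were SYTL5, MGAM, PSG9, MPP7, ADGRG6, ADAMTS5, HDAC9, SSTR1, ID3, PLPPR4 and KCNN2. In the same edgeR fit CEMIP (log2 -2.52 ± 0.47, adjusted p = 3.4e-06) and ANO3 (-1.70 ± 0.47, adjusted p = 0.0052) were lower. KCNN2 kept its call in 5 of the 12 fits that left out 1 library.

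In 0.1% serum 23 of the 52 genes (44.2%) were called higher in ΔLEO1 cells and 1 lower, where 3.85% and 3.59% of all tested genes were. The median log2 difference of the 52 was 1.21 and that of all tested genes 0.27. All 16 genes called higher in 10% serum were among the 23, and the further 7 were DIO2, NLRP10, PPM1H, SERPINB7, SLITRK1, SYT16 and TPD52L1. The largest differences in edgeR were in OLR1 (log2 5.46 ± 0.55, adjusted p = 2.2e-20), PTPRQ (4.22 ± 0.56, adjusted p = 5.4e-12), PSG1 (4.11 ± 0.63, adjusted p = 6e-09), ACTC1 (3.88 ± 0.54, adjusted p = 8.5e-11) and SYT16 (3.36 ± 0.56, adjusted p = 8.8e-08). The integrin gene ITGA8 was lower (log2 -1.84 ± 0.53, adjusted p = 0.0095). Library 12 decided several of these values. ERCC transcripts made up 1.09% of its counts, against 1.88% in library 10 and 3.24% in library 11. ERCC scaling therefore raised all genes of library 12 against those of libraries 10 and 11. The part of this scaling in the values was not tested. Without library 12, 16 genes were called higher, where 2.66% of all tested genes were, and ADAMTS5, ID3, NLRP10, PLPPR4, PPM1H, SERPINB7 and SLITRK1 lost the call. PTPRQ was then at 1.91 and SYT16 at 1.33 on the log2 scale (edgeR adjusted p = 0.00086 and 0.048), and 7 genes were called lower, where 7.85% of all tested genes were. By role, 7 of 13 receptor, channel and membrane genes, 6 of 12 signalling and trafficking genes, 4 of 13 secreted and matrix genes, 3 of 5 metabolic enzymes, 2 of 4 nuclear regulators and 1 of 5 muscle, caveolar and keratin genes were among the 23. In neither serum was a difference called for 26 genes, among them COL11A1, PSG5, MYOCD, GJA5, IL7R, MMP3 and NQO1.

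**Figure D5:**
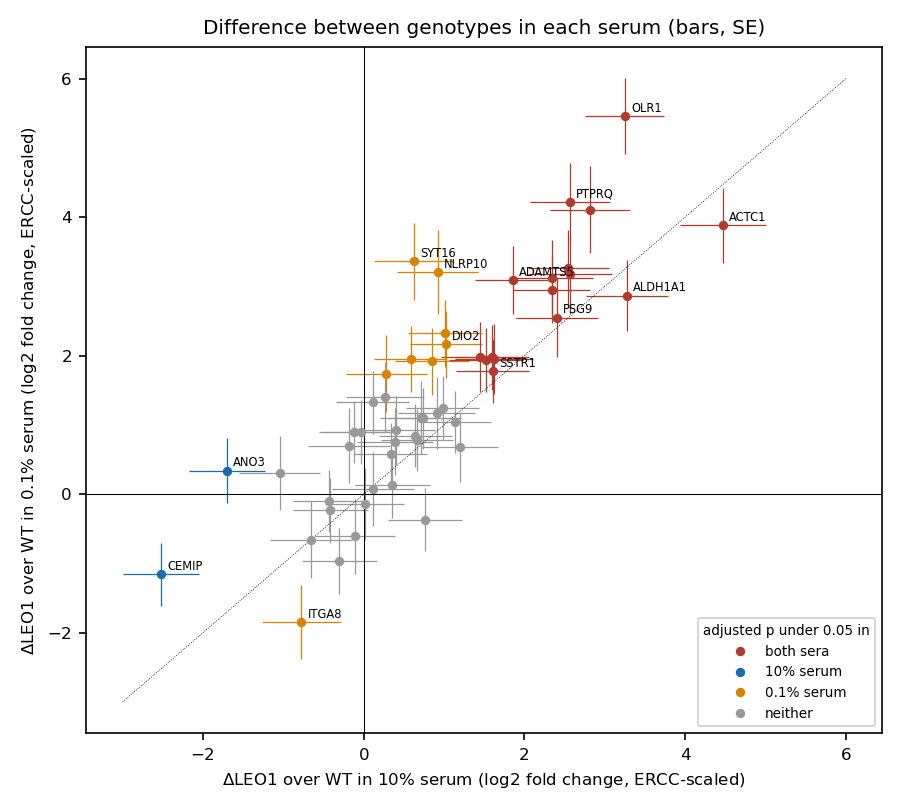
Log2 fold change of ΔLEO1 over wild-type cells in 10% serum (x axis) and 0.1% serum (y axis) for each of the 52 genes, with ERCC scaling and SE as bars, coloured by the serum in which the adjusted p was under 0.05. The 16 red genes lie to the upper right, CEMIP and ANO3 to the left, and ITGA8 lowest. The dotted line marks equal differences.

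With TMM scaling on the genes 20 were called higher and 4 lower in 10% serum, where 17.7% and 21.8% of all tested genes were, and 26 higher and 3 lower in 0.1% serum, where 15.4% and 17.6% were. All 16 genes called higher in 10% serum and 21 of the 23 in 0.1% serum were called on both scales, SERPINB7 and SLITRK1 being the exceptions. On ERCC-scaled counts every ΔLEO1 library was above every wild-type library in 26 of the 52 genes in 10% serum, where 23.7% of all tested genes were, and under in 3, where 6.94% were. In 0.1% serum it was 18 above and 2 under, where 4.64% and 4.83% of all tested genes were. On CPM it was 22 above and 6 under in 10% serum (29.8% and 29.6% of all tested genes) and 26 above and 3 under in 0.1% serum (19.7% and 21.8%).

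Without libraries 3, 6, 9 and 12, 18 genes were called higher and 3 lower in 10% serum, where 7.3% and 7.24% of all tested genes were. In 0.1% serum 19 were then called higher and 8 lower (CEMIP, CAVIN2, DEPP1, HMCN1, ITGA8, KCNH1, RNF144B and SOCS2), where 2.86% and 16.6% of all tested genes were, so the share of the 52 called lower was close to that of all genes, while the median log2 difference of all tested genes moved from 0.27 to -0.42. ADAMTS5 fell from 3.09 to 1.35, PTPRQ from 4.22 to 2.35, SYT16 from 3.36 to 1.90 and OLR1 from 5.46 to 4.29 on the log2 scale in 0.1% serum without them, and these kept an adjusted p under 0.05 (edgeR, 0.003, 2.4e-05, 0.00091 and 2.4e-21). NLRP10 fell from 3.21 to 0.70, DIO2 from 2.16 to 0.92, PPM1H from 1.95 to 0.77 and SLITRK1 from 1.74 to 0.45, and these lost the call (edgeR adjusted p = 0.4, 0.071, 0.13 and 0.56).

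The interaction of genotype and serum, the log2 change in low serum of ΔLEO1 cells minus that of wild-type cells, was called for 0 of the 52 genes in edgeR with ERCC scaling, where 0.136% of all tested genes were called positive and 0.0831% negative. It was also called for 0 with the quasi-likelihood test (0.113% and 0.0604% of all tested genes). With DESeq2 on ERCC size factors it was called for 0 as well (0.0604% and 0.0756%), with no adjusted p for NAV3 and PTPRQ. The rule bounds it, since a gene had to fall in both genotypes. At an unadjusted p under 0.05 were 8 of the 52 genes, beside 330 of all tested genes (2.49%). The largest values were in SYT16 (log2 2.74, 95% interval 1.33 to 4.16, adjusted p = 0.058) and OLR1 (2.21, 0.93 to 3.49, adjusted p = 0.16). With TMM scaling in edgeR 4 genes were called positive, where 3.06% of all tested genes were (1.02% negative), namely OLR1 (2.07, adjusted p = 0.029), ANO3 (2.02, adjusted p = 0.0001), DIO2 (1.24, adjusted p = 0.021) and MYPN (1.13, adjusted p = 0.043). Without libraries 3, 6, 9 and 12 the interaction was 1.30 for SYT16 and 0.94 for OLR1 in edgeR with ERCC scaling (adjusted p = 0.32 and 0.34), and without library 12 alone 0.71 and 0.86 (adjusted p = 0.54 for both). Without libraries 3, 6, 9 and 12 HMCN1 and DEPP1 were called negative (-1.91 and -2.04), where 0.831% of all tested genes were. The value was negative in 12 of the 52 genes with all libraries and in 35 without these, and its median moved from 0.41 to -0.25, where that of all tested genes moved from -0.07 to -0.67.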

How the data were processed

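The authors made stranded poly(A) libraries with ERCC transcripts added and read both ends of each fragment. STAR (2.7.10a in the submitters' processing notes) mapped the reads to GRCh38 plus the ERCC transcripts, and featureCounts 1.5.1 assigned them to annotated exons. They deposited raw counts per gene and per ERCC transcript for 12 libraries. The strand setting of the counting and the annotation release are not given in the sources used here. Reads of genes that overlap on opposite strands (33 of the 52 genes have such a neighbour) can be told apart only if strand was used. Depth was 26240632 to 45315560 gene counts per library. The 95% intervals are the log2 fold change with 1.96 SE on either side and take in the fitted spread between libraries.

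CPM was computed from the gene totals. In R 4.3.3 with edgeR 4.0.16 (limma 3.58.1), genes over 1 CPM in 3 or more libraries (13236) entered a single fit of 4 groups with effective library sizes from the ERCC totals and their TMM factors. The filter and the ERCC scaling follow the study, which does not name the test. Two-sided likelihood ratio tests were adjusted over all tested genes by Benjamini-Hochberg, and genes under 0.05 were called. Values after ± are SE for log2 fold changes and SD for CPM. DESeq2 1.42.0, the quasi-likelihood test, other scalings, no filter and leaving out libraries were alternatives, and summing the lower-numbered libraries of each group was added after seeing the data. The fits were tested on simulated data.

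The 52 genes, the gene lists, roles and motifs were chosen with earlier results of these data known. Named with values were the 30 genes with the largest smaller fall, members of lists, called genes with the largest differences between genotypes, those nearest the thresholds and the most abundant. The other members and the named relatives were added after their values were seen. Positions came from GENCODE 29 and promoter windows from RefSeq on GRCh38.p14.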

Additional observations from a re-analysis of the deposited data

How the results depend on the processing

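The size of the gene set depended on the rule. It was 145 with a fall to 1/2 or less, 28 with 1/4 or less and 34 with a CPM minimum of 10, and 592 on ERCC-scaled counts, where the median of all genes fell too. A CPM minimum of 1 gave 72 genes, TMM scaling 57, medians 55 (42 of the 52 among them) and leaving out libraries 3, 6, 9 and 12 gave 65 (41 of the 52). Leaving out each library in turn gave 39 to 61. Of the 52 genes, 30 were kept in every setting that left out libraries and with medians. Among the 22 that were lost in 1 or more were ACTC1, ANO3, ID3, ITGA8, NR4A3 and SOCS2.

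The calls between genotypes are given with the share of all tested genes in parentheses. With each library left out in turn, 11 to 21 genes were called higher in ΔLEO1 cells in 10% serum (2.77% to 8.25%) and 16 to 35 in 0.1% serum, with 16 without library 12 (2.66%) and 35 without library 11 (10.1%). With the lower-numbered libraries summed 11 genes (2.18%) were called higher in 10% serum and 21 (2.67%) in 0.1% serum. With DESeq2 on ERCC size factors these counts were 14 (4.4%) and 20 (3.68%). Genes called lower in 10% serum (2) were 4 with TMM (21.8%) or DESeq2 size factors on the genes (21.3%), 1 with the lower-numbered libraries summed (2.67%), and 1 to 3 with each library left out, 1 without library 5 (3.17%). Genes called lower in 0.1% serum (1) were 3 with TMM (17.6%) or DESeq2 size factors on the genes (17.4%), 0 with DESeq2 on ERCC size factors (3.48%), with only the libraries compared (2.91%) or with libraries summed (1.84%), and 8 without libraries 3, 6, 9 and 12 (16.6%). With each library left out they were 0 to 7, 0 without library 7 (2.93%) or 10 (2.62%) and 7 without library 12 (7.85%). The interaction (0) was called for 4 genes with TMM (4.08%) or DESeq2 size factors on the genes (3.99%), 2 without libraries 3, 6, 9 and 12 (0.997%), and 0 to 4 with each library left out, 4 without library 11 (0.521%) and 1 without library 3, 9, 10 or 12 (0.196% to 0.665%). The falls in low serum, which the choice of the genes fixes, were called for 52 genes in each genotype whichever library was left out. With all libraries 36.1% of all tested genes were called lower in wild-type and 47.2% in ΔLEO1 cells. With libraries summed the falls were called for 52 genes in wild-type and 44 in ΔLEO1 cells, where 606 and 203 of the 13236 tested genes were. DESeq2 on ERCC size factors gave no adjusted p for NAV3 and PTPRQ. No value called with all libraries changed sign. KCNH1 and RNF144B, at 0.70 and 0.30 and not called with all libraries in 0.1% serum, were at -1.39 and -1.26 and called lower without libraries 3, 6, 9 and 12. The cause of these shifts was not tested. No paired analysis was possible because the library numbers run from 1 to 12, no number is shared between groups and no label ties libraries of different groups.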
